A study of Mus musculus with 3 samples.

Results

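Single-base transitions are positions at which the variant base and the B6 base are both purines (A and G) or both pyrimidines (C and T). They were taken from lists of variant positions on mouse chromosome X, read in DNA isolated with an antibody to LSD1. No input library or peak calls were used, so single positions are not known to be bound by LSD1. A row was a member when its B6 and variant entries were single letters forming an A/G or C/T pair in either direction and its position was listed once. MEF held 254515 transitions among 411944 single-base sites, LowK 115617 among 186841 and MidK 71155 among 119257. Counted once per position and variant base, the libraries together held 399191 transitions among 652139 single-base changes. LSD1 (Kdm1a) is a demethylase of histone H3 that acts in corepressor complexes, and chromatin was isolated with the antibody ab17721 and sequenced. MEF was mouse embryonic fibroblasts at day 0, labelled somatic cells. LowK was MEF carrying SeVdp(fKOSMaB), a reprogramming vector, at day 20 and given no Shield1. MidK was MEF with the same vector at day 20 with 30 nM Shield1, a small molecule that protects destabilising-domain fusion proteins from degradation. Both day 20 samples are labelled reprogramming cells, each group holds 1 library, and neither the strains, the sex of the embryos nor the strain behind the variant base is given in the sources used here. The lists hold DNA reads of 1 chromosome, so markers of the labelled cell types were not checked.

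A transition exchanges bases of the same ring type and is the commonest class of single-base difference between mammalian genomes. Cytosine followed by guanine (CpG) is the main site of DNA methylation, and methylated cytosine deaminates to thymine, so CpG positions are known for frequent C-to-T change. On the double strand, C to T and G to A are the same change seen from either strand and are called C:G to T:A here, a change that removes a G:C pair (GC-losing). A to G and T to C are its mirror image, A:T to G:C (GC-gaining). The direction is relative to the B6 base and does not say which base is older.

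The promoter windows that held the most transitions listed by at least 2 libraries are shown first, since they place the sites in their sequence. Each runs 5′ to 3′ from 250 bases before to 50 bases after the annotated start (RefSeq, GRCm38.p6, the build called mm10), in lower case, with capitals at the transitions listed by at least 2 libraries. Cenpi, which encodes a centromere protein, has its window at chrX:134307834-134308133 on the plus strand, Cldn34c1, a claudin-like gene of a multi-copy family, at chrX:123103273-123103572 on the plus strand, and Hprt, which encodes a purine salvage enzyme, at chrX:52987828-52988127 on the plus strand.
Cenpi: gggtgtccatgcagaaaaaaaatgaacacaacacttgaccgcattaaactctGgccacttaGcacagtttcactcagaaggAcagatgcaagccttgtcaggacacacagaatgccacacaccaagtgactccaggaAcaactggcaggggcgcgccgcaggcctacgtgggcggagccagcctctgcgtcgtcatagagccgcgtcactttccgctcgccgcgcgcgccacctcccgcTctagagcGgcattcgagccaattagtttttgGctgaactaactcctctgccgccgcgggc
Cldn34c1: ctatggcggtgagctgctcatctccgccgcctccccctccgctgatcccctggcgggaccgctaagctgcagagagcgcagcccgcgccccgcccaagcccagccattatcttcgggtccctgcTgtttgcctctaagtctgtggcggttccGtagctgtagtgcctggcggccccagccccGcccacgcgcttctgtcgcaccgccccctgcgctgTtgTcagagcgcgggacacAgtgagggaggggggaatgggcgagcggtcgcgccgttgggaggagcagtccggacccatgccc
Hprt: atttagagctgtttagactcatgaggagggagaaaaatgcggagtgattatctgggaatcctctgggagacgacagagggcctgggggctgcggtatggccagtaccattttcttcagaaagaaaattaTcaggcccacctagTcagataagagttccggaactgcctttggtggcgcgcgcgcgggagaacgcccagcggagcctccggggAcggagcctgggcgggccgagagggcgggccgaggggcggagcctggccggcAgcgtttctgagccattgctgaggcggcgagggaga

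In Cenpi the window held 7 such transitions, of which 5 were listed by all 3 libraries. Counting from the first base printed, these 5 were G62A, A82G, A138G, T240C and G248A. G248A lies in a CpG and was read as the variant base 2 times in MEF, 1 time in LowK and 3 times in MidK, with 0 B6 reads in each. A138G had 6, 2 and 3 variant reads and 0 B6 reads. The other listed positions, G53A and G272A, were not listed in MEF and had 4 variant reads each in LowK and 1 and 2 in MidK. Of the 7 sites, B6 reads were seen at A82G only, with 1 in MidK.

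Cldn34c1 carried 6 transitions shared by at least 2 libraries, 3 of them listed by all. T125C was read with both alleles throughout, at 4 B6 and 3 variant reads in MEF, 1 and 3 in LowK and 2 and 4 in MidK. G153A, in a CpG, had 12 B6 and 5 variant reads in LowK and 6 and 3 in MidK and was not listed in MEF. G183A, also in a CpG, had 0 B6 and 3 variant reads in MEF and 1 and 5 in LowK. The neighbours T218C and T221C had the same counts. They lie 3 bases apart and may have been counted from the same reads. Reads of this gene can come from another family member, so its values are uncertain. The Hprt window held 4 shared transitions, T130C, T144C, A213G and A265G, all A:T to G:C, and A265G was listed by all 3 libraries, with 2, 3 and 1 variant reads and 0, 1 and 0 B6 reads in MEF, LowK and MidK.

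Of 86 microRNA hairpins on chromosome X in the RefSeq table, 6 held a transition, 9 sites in all, and 1 site was listed by 2 libraries. It lies in Mir717, at chrX:52422407-52422515 on the minus strand, inside the Gpc3 gene body, and was singled out after its values were seen. In the hairpin, capitals mark the transitions, and in the mature strand (chrX:52422461-52422482, minus strand) they mark the seed, bases 2 to 8.
Mir717: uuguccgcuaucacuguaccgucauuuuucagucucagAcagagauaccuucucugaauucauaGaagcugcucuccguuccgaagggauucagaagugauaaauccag
mmu-miR-717: cUCAGACAgagauaccuucucu
Counting from the first hairpin base, the shared site is A39G, which is base 6 of the mature strand and so in the seed, the part of a microRNA that pairs with its targets. It had 3 variant and 0 B6 reads in MEF and 1 and 0 in MidK. The other capital, G65A, lies outside the mature strand and had 4 B6 and 2 variant reads in MEF only.

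Transitions made up 61.8% of MEF single-base sites, with an exact 95% interval (Clopper-Pearson) of 61.6% to 61.9%. The LowK value was 61.9% (61.7% to 62.1%) and the MidK value 59.7% (59.4% to 59.9%). Equal use of all 12 single-base changes would give 33.3%. MEF and LowK did not differ beyond counting error, and MidK lay below both, with 1.48 transitions per transversion against 1.62 in MEF and in LowK. Intervals throughout are of this kind, allow for counting error alone and are narrower than the true error, because neighbouring sites can share a read, and with 1 library per group no test between groups was possible.

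Transitions of the C:G to T:A class were slightly more than 50% of the total in MEF and slightly less in MidK. MEF listed 65602 C to T and 64791 G to A sites against 62097 A to G and 62025 T to C, so that 51.2% of transitions were C:G to T:A (51.04% to 51.4%). LowK listed 28873 and 29104 against 28647 and 28993, or 50.1% (49.9% to 50.4%). MidK listed 17794 and 17407 against 17916 and 18038, or 49.5% (49.1% to 49.8%). The interval lay above 50% in MEF, included it in LowK and lay below it in MidK. Complementary changes should be alike, and their gap gives a yardstick of error: C to T minus G to A was 0.319, -0.200 and 0.544 percentage points of the transitions in MEF, LowK and MidK, and A to G minus T to C 0.0283, -0.299 and -0.171. Between the classes, C:G to T:A minus A:T to G:C was 2.46 points in MEF, 0.291 in LowK and -1.06 in MidK, so the LowK gap was smaller in size than the largest complementary gap in LowK. With at least 2 reads per site the MidK share was 50.1% and its interval included 50%.

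The share was higher at sites with 5 or more reads than at sites with 1 read in all 3 libraries. At sites with 1 read C:G to T:A made up 50.3% of transitions in MEF, 49.6% in LowK and 49.2% in MidK. Sites with 5 to 9 reads gave 53.0% (52.3% to 53.7%), 54.7% (52.8% to 56.6%) and 54.6% (52.9% to 56.4%). From 10 reads upward the share was 60.2% for MEF (415 sites), 66.7% for LowK (120 sites) and 59.6% for MidK (188 sites). The 5 to 9 read class thus lay above the 1 read class in each library with intervals apart, and the 3 intervals at 5 to 9 reads overlapped each other. MidK was flat below 5 reads, at 49.0% with 2 reads and 49.5% with 3 or 4 reads. At sites with 3 or more variant reads and no B6 read the share was 51.1% in MEF, 49.4% in LowK and 45.0% in MidK. Each of these lay below the 5 to 9 read class with intervals apart, but they differ from it in depth and in the alleles read. At sites with variant reads only, of 1, 2 and 3 or more reads, the share was 50.3%, 51.9% and 51.1% in MEF. In LowK it was 49.6%, 50.4% and 49.4%, and in MidK 49.2%, 47.8% and 45.0%. Whether base composition or mapping moved with the share was not tested.

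**Figure D1:**
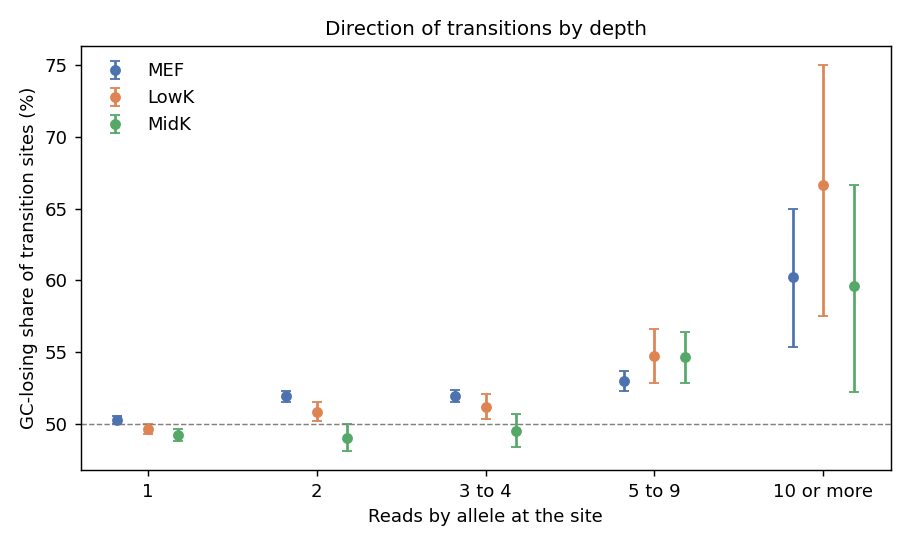
Share of transition sites that were C:G to T:A (GC-losing) in percent, by the reads at the site, for the 3 libraries; points are shares, bars exact 95% intervals, and the dashed line is 50%. The share at 5 to 9 reads (53.0%, 54.7% and 54.6% in MEF, LowK and MidK) lies above that at 1 read (50.3%, 49.6% and 49.2%).

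Depth by class showed the same order. The mean of C:G to T:A sites was 2.17 (MEF), 1.61 (LowK) and 1.73 reads (MidK). That of A:T to G:C sites was 2.11, 1.55 and 1.62. The medians of both classes were 2, 1 and 1 reads. A single read was all that 46.1% of C:G to T:A and 47.9% of A:T to G:C sites had in MEF, with intervals apart (45.8% to 46.4% and 47.6% to 48.2%). In LowK it was 66.7% and 68.2%, also apart, and in MidK 69.4% and 70.1%, with intervals that overlapped. Sites with at least 5 reads were 7.91% and 7.33% in MEF, 2.70% and 2.20% in LowK and 5.07% and 4.08% in MidK. The listed depth exceeded the reads by allele at 5.70%, 3.76% and 5.04% of transitions in MEF, LowK and MidK. Once single-read sites were left out, the share of sites with exactly 2 reads differed with intervals apart in MidK only (50.1% against 52.2%).

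B6 reads were more frequent at C:G to T:A than at A:T to G:C sites in each library. In MEF the C:G to T:A sites held 40381 B6 and 242996 variant reads and the A:T to G:C sites 34579 and 227213, which is 85.8% variant (85.6% to 85.9%) against 86.8% (86.7% to 86.9%). In LowK it was 9709 and 83366 against 7587 and 81762, or 89.6% (89.4% to 89.8%) against 91.5% (91.3% to 91.7%). In MidK it was 12121 and 48785 against 9435 and 48885, or 80.1% (79.8% to 80.4%) against 83.8% (83.5% to 84.1%). The gap was -1.04 points in MEF, -1.94 in LowK and -3.72 in MidK. Between complementary changes the gaps stayed at 0.0877 (C to T minus G to A) and 0.103 (A to G minus T to C) points in MEF, -0.199 and 0.606 in LowK and -0.232 and -0.0902 in MidK. The gap between the classes was thus over 3 times the largest complementary gap in each library. A position without a variant read is never listed, so these shares are pushed upward for both classes and more so at low depth. Transversions were 85.1%, 89.6% and 80.0% variant in MEF, LowK and MidK, nearer to C:G to T:A than to A:T to G:C. The lower variant share was thus not particular to C:G to T:A changes.

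Within a depth class the variant share was lower at C:G to T:A sites in each library at 2, at 3 or 4 and at 5 to 9 reads, but not from 10 reads upward. At 5 to 9 reads the variant share was 66.0% at C:G to T:A and 67.3% at A:T to G:C sites in MEF, 60.5% and 63.5% in LowK and 44.7% and 47.8% in MidK. At 2 reads it was 99.3% and 99.4% in MEF, 96.3% and 97.1% in LowK and 90.0% and 91.9% in MidK. Intervals are not given for these shares by depth, and the MEF values at 2 reads were close. At 10 or more reads the order turned in MEF (54.3% and 50.3%) and MidK (49.7% and 48.4%) but not in LowK (47.0% and 57.3%).

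Two-allele sites, read 2 or more times with each base, made up 7.53% of C:G to T:A and 6.84% of A:T to G:C sites in MEF. They were 3.23% and 2.64% in LowK and 7.14% and 5.83% in MidK, with intervals apart in each library. Among the 18311 two-allele transitions of MEF, C:G to T:A accounted for 53.6% (52.9% to 54.3%). For the 3390 of LowK it was 55.2% (53.5% to 56.9%) and for the 4608 of MidK 54.5% (53.1% to 56.0%). The 3 intervals overlapped there. At variant-only sites with 1 read, 69.8% of the MidK transitions, the MidK and LowK intervals overlapped (48.8% to 49.7% and 49.3% to 49.96%). With 2 variant reads and no B6 read the MidK share was 47.8% (46.8% to 48.9%), below LowK at 50.4% (49.7% to 51.1%) and MEF at 51.9% (51.4% to 52.3%). With 3 or more variant reads and no B6 read, MEF had 34750 transitions, 51.1% of them C:G to T:A (50.6% to 51.6%). LowK had 6192, at 49.4% (48.1% to 50.6%), and MidK 1815, at 45.0% (42.7% to 47.3%). The MidK interval lay below the others, while those of MEF and LowK overlapped. The step from variant-only sites of 3 or more reads to two-allele sites was thus smallest in MEF and largest in MidK, with intervals apart within each library. These kinds of site were not matched for depth, since two-allele sites need 2 reads of each base and the variant-only sites 3 reads. The two-allele percentages of C:G to T:A and A:T to G:C sites were not matched for depth either.

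**Figure D2:**
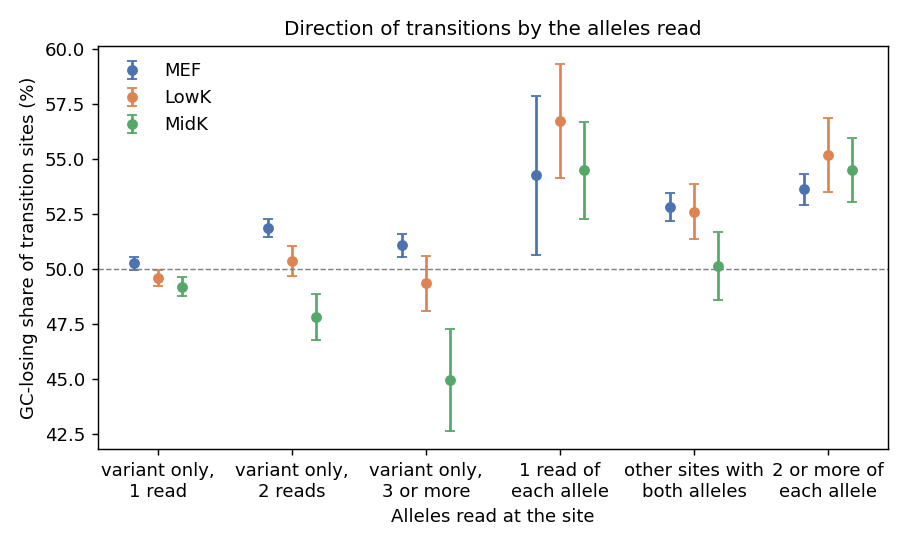
Share of transition sites that were C:G to T:A (GC-losing) in percent, by which alleles were read, for the 3 libraries; points are shares, bars exact 95% intervals, and the dashed line is 50%. Sites with 2 or more reads of each allele lie at 53.6%, 55.2% and 54.5% in MEF, LowK and MidK, while variant-only sites with 3 or more reads spread over 51.1%, 49.4% and 45.0%.

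At two-allele sites with 5 to 20 reads and no tie, 1 per 300 bp, the allele with more reads was counted. The variant base led at 50.4% of 4243 C:G to T:A sites (48.9% to 51.9%) and 50.04% of 3715 A:T to G:C sites in MEF (48.4% to 51.7%). In LowK it led at 45.2% of 719 (41.5% to 48.9%) and 49.9% of 563 (45.7% to 54.1%). MidK had the variant base ahead at 21.9% of 1148 C:G to T:A sites (19.5% to 24.4%) and 27.7% of 954 A:T to G:C sites (24.9% to 30.6%), with intervals apart. The B6 base led in both classes in MidK. The MidK gap of -5.81 points was -5.99 with 1 single-base site per 300 bp, -5.27 with no upper limit on depth and -8.09 at a reliability of at least 20, with intervals that overlapped in each.

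Transitions were listed by another library somewhat more often than transversions. Among sites that MEF and LowK both listed with the same variant base, 64.2% were transitions (63.8% to 64.7%), against 61.5% of the sites listed by MEF and not LowK and 61.3% of those listed by LowK and not MEF. For MEF and MidK the shared value was 63.1%, against 61.7% of other MEF and 59.0% of other MidK sites. For LowK and MidK it was 64.0%, against 61.7% and 59.2%. Shared positions rarely disagreed: the libraries listed different variant bases at 77 of 24414 positions with a transition in MEF or LowK (0.315%), at 89 of 12555 for MEF and MidK (0.709%) and at 71 of 7287 for LowK and MidK (0.974%). The B6 base differed at 0 of the shared positions.

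Between the classes, A:T to G:C sites were shared slightly more often in several pairs. LowK listed 9.39% of the C:G to T:A (12241 sites) and 9.75% of the A:T to G:C sites of MEF (12096), and MidK listed 4.72% (6150) and 5.09% (6316), with intervals apart in both. Of the LowK sites, MidK listed 5.99% of the C:G to T:A (3475) and 6.49% of the A:T to G:C class (3741), also apart. In the other direction MEF listed 21.1% and 21.0% of the LowK sites and 17.5% and 17.6% of the MidK sites, and LowK listed 9.87% and 10.4% of the MidK sites, with intervals that overlapped. With at least 2 reads per site the intervals overlapped in all 9 of these comparisons, those over all 3 libraries included.

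All 3 libraries listed 1923 transitions with the same variant base, 909 C:G to T:A (47.3%, 45.02% to 49.5%) and 1014 A:T to G:C. They are 64.3% of the single-base sites listed by all 3. Variant reads at them were 70.7% for C:G to T:A and 79.5% for A:T to G:C in MEF, 77.0% and 85.2% in LowK and 66.7% and 80.9% in MidK. The sites are few and some are very deep: with at most 20 reads in each library, an alternative chosen after seeing the data, the shares were 82.3% and 84.8% in MEF, 86.3% and 90.1% in LowK and 82.4% and 85.6% in MidK, with intervals apart in LowK only. No B6 read was seen in any library at 499 C:G to T:A (54.9%, 51.6% to 58.2%) and 627 A:T to G:C sites (61.8%, 58.8% to 64.8%). These counts had no upper limit on depth and were not matched for it. Mean depth was 4.41 reads at C:G to T:A and 3.01 at A:T to G:C sites in MEF. It was 2.87 and 2.24 in LowK and 3.70 and 2.23 in MidK, with medians of 2, 1 and 1 in both classes.

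Single sites show what such sharing looks like. Sites that met the two-allele rule and had no more than 20 reads in every one of the 3 libraries were rare: 3 were C to T, and G to A, A to G and T to C had 1 each. A C-to-T site at X:13281815 in Ddx3x, an RNA helicase gene that escapes X inactivation, had 6 B6 and 4 variant reads in MEF, 3 and 3 in LowK and 5 and 5 in MidK. The T-to-C site at X:13281811, 4 bases away, had 7 and 5, 3 and 3, and 4 and 5, so both may come from largely the same reads. Outside gene bodies, the A-to-G site at X:5394293 had 5 and 6, 4 and 2, and 2 and 3, and the G-to-A site at X:102178586 had 2 and 3, 4 and 6, and 3 and 2. The rule itself required both alleles in each library.

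Sites listed by all 3 libraries with no B6 read in any were more frequent, at 264 C to T, 235 G to A, 327 A to G and 300 T to C. The deepest T-to-C site, at X:33928017 outside gene bodies, had 15, 2 and 3 variant reads in MEF, LowK and MidK. In Pcdh11x, a protocadherin gene, a C-to-T site at X:120716343 had 11, 3 and 1. An A-to-G site at X:140937897 in Vsig1 had 8, 4 and 1, and one at X:12158631 in Bcor, a corepressor gene, had 3, 8 and 1. In the noncoding gene 4933407K13Rik a T-to-C site at X:75755463 had 5, 9 and 3. The order of the libraries differed from site to site.

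In promoters, C:G to T:A transitions were concentrated at CpG positions. The RefSeq table gives 1223 windows of 300 bases on chromosome X from 1046 genes, which cover 348423 bases, and the B6 base equalled the RefSeq base at all 1028 single-base sites of MEF, all 899 of LowK and all 333 of MidK. The windows held 650, 560 and 209 transitions. Of the C and G bases in them 12.4% lie in a CpG (the motif CG, the same on both strands). For the 349 C:G to T:A sites of MEF it was 33.5% (28.6% to 38.7%), for the 294 of LowK 37.1% (31.5% to 42.9%) and for the 107 of MidK 29.9% (21.4% to 39.5%). All 3 intervals lay above 12.4%. Per 1000 bases that is 5.27 sites in CpG against 1.48 at other C and G bases in MEF, 4.91 against 1.18 in LowK and 1.44 against 0.480 in MidK, or ratios of 3.55, 4.15 and 3.01. The rates and the 12.4% count every C and G base of the windows, whether read or not. Mean depth was 2.77 reads at CpG and 2.43 at other C:G to T:A sites in MEF, 3.15 and 2.64 in LowK and 3.16 and 2.09 in MidK. Coverage was not corrected for, and its part in the ratios was not tested.

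**Figure D3:**
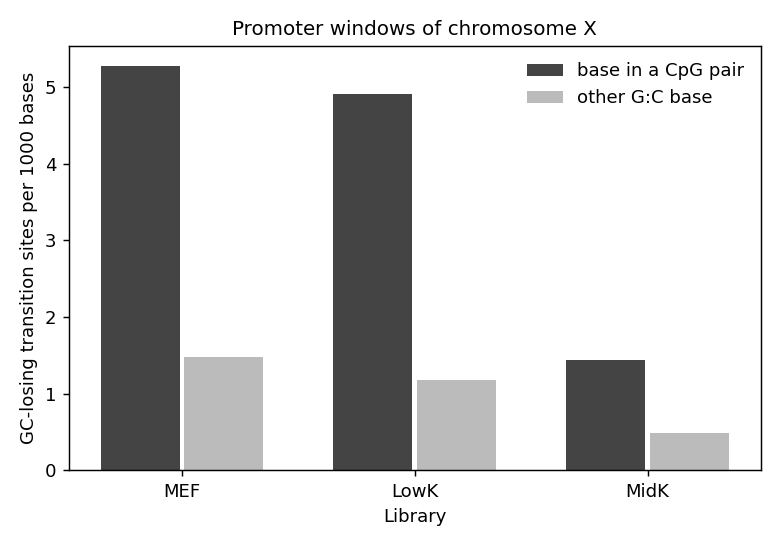
GC-losing (C:G to T:A) transition sites per 1000 bases in promoter windows of chromosome X, at bases in a CpG pair (dark bars) and at other C and G bases (light bars), for the 3 libraries; bars start at 0. The CpG rate is 5.27, 4.91 and 1.44 in MEF, LowK and MidK against 1.48, 1.18 and 0.480 elsewhere, over all bases of the windows, read or not.

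The mirror change did not show this. A T before G or an A after C becomes a CpG when it changes to C or G, and 29.1% of the A and T bases in the windows lie in such a place (the motifs TG and CA). Of the 297 A:T to G:C sites of MEF, 25.6% were there (20.7% to 30.9%), of the 263 of LowK 30.4% (24.9% to 36.4%) and of the 101 of MidK 29.7% (21.02% to 39.6%). All 3 intervals included 29.1%. At the CpG sites the reads were 57 B6 and 267 variant in MEF (82.4% variant), 82 and 261 in LowK (76.1%) and 38 and 63 in MidK (62.4%, 52.2% to 71.8%). At other C:G to T:A sites of the windows the variant share was 86.7%, 80.0% and 78.3% (71.1% to 84.5% in MidK), with intervals that overlapped in each library.

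LowK had a larger part of its transitions in promoters than the other libraries. The windows held 0.255% of the MEF transitions (0.236% to 0.276%), 0.484% of those of LowK (0.445% to 0.526%) and 0.294% of those of MidK (0.255% to 0.336%). Of the reads by allele at transitions they held 0.303%, 0.833% and 0.419%. Transversions had the same order, with 0.240%, 0.476% and 0.258% of sites, so the difference was not particular to transitions. Mean depth at promoter transitions was 2.54 reads for MEF, 2.71 for LowK and 2.39 for MidK, against 2.14, 1.57 and 1.67 elsewhere. The C:G to T:A class made up 54% of promoter transitions in MEF (50.1% to 57.9%), 52.7% in LowK and 51.2% in MidK, with intervals that overlapped those of the sites outside the windows.

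Of the 44 genes in the lists used here, 36 had a promoter window and 27 of these held a transition in any library, 51 in all. The windows of all 1046 genes held 1090 transitions listed by any library. Of the 1223 windows, 428 held a transition in MEF, 372 in LowK and 167 in MidK. Those are windows by library, not genes over all libraries, so 27 of 36 cannot be set against them directly. In Shroom4, a cytoskeletal gene, a G-to-A site at X:6400010 had 4 variant and 0 B6 reads in MEF and 4 and 1 in LowK. In Gpc4, a glypican gene, a C-to-T site at X:52165086 had 3 variant and 1 B6 reads in MEF and 5 and 1 in LowK. A T-to-C site at X:153359549 in Klf8, a zinc-finger transcription factor gene, had 5 and 0 in MEF and 5 and 3 in LowK. A pair of C-to-T sites in Zfx, at X:94123468 and X:94123511, had 2 and 2 variant reads in LowK with 3 and 0 B6 reads, and 3 and 3 in MidK with 1 and 2. These sites were picked after their values were seen, as ones read in 2 libraries.

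Along the chromosome the MEF excess of C:G to T:A was widespread. Of 17 windows of 10 Mb with at least 50 transitions, 16 held more C:G to T:A than A:T to G:C sites in MEF, and 11 (64.7%) had an interval above 50% and 0 (0%) below. LowK had more in 13 of 18, with 1 (5.56%) above and 2 (11.1%) below, and MidK in 5 of 18, with 1 (5.56%) above and 3 (16.7%) below. Shares ran from 49.7% to 52.8% in MEF, 48.3% to 61.4% in LowK and 47.1% to 69.7% in MidK. The extreme in LowK and MidK was the last window, from 170 Mb, with 70 and 76 transitions. MEF had 46 there, too few to be counted, at 69.6%. Without it the highest were 51.6% and 51.7%. All 3 libraries had their lowest share in the same window, X:120000001 to 130000000, at 49.7%, 48.3% and 47.1%. With 1 single-base site per 300 bp, more C:G to T:A than A:T to G:C sites were seen in 8 LowK windows. With at least 2 reads per site they were seen in 10 MidK windows.

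**Figure D4:**
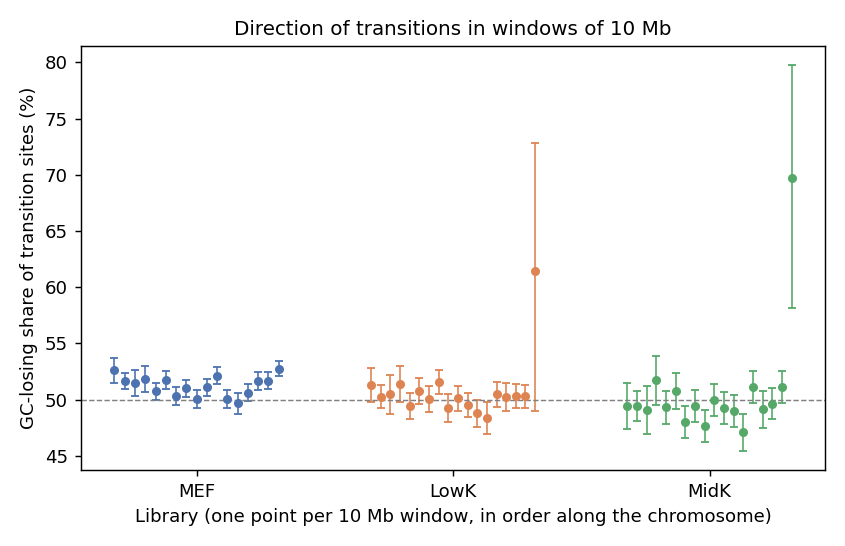
Percent of transition sites that were C:G to T:A (GC-losing) in windows of 10 Mb with at least 50 transitions, in chromosome order within each library; points are shares, bars exact 95% intervals, and the dashed line is 50%. In MEF 16 of 17 points lie above 50%, in LowK 13 of 18 and in MidK 5 of 18.

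Of 156 windows of 1 Mb with at least 50 transitions in MEF, 29 (18.6%) had an interval above 50% and 4 (2.56%) below. Of 154 in LowK 9 (5.84%) were above and 6 (3.9%) below, and of 154 in MidK 4 (2.6%) and 8 (5.19%). All windows of 1 Mb held a median of 1671 transitions in MEF, 717.5 in LowK and 471 in MidK. The most in MEF were 2395 at X:142000001 to 143000000, around Tmem164, Gucy2f, Ammecr1 and Acsl4, 2368 at X:134000001 to 135000000, which holds Cenpi and Nox1, and 2308 at X:12000001 to 13000000, which holds Bcor and Med14. LowK had 1003, 1251 and 1479 in these and MidK 550, 535 and 594, above the median in both. The fewest in MEF were 0 at X:28000001 to 29000000, 0 at X:30000001 to 31000000 and 1 at X:27000001 to 28000000, where LowK had 2, 2 and 6 and MidK 2, 3 and 0. The window X:125000001 to 126000000 also had 1 in MEF, with 4 in LowK and 2 in MidK. Most of the leading genes in the first 3 of these windows are predicted genes with Gm names.

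Gene bodies (1255 protein-coding and long noncoding genes, 50.6 Mb) held 34.3% of the transitions in MEF, 32.9% in LowK and 29.2% in MidK. The single-base sites of MEF ran from position 3058351 to 170843149. Whether these percentages differ from the part of the readable chromosome that gene bodies cover was not tested. Inside gene bodies C:G to T:A made up 51.9% and outside them 50.9% in MEF, 50.8% and 49.8% in LowK and 50.3% and 49.1% in MidK. The inside value was higher in each library with intervals apart (51.5% to 52.2% and 50.7% to 51.1% in MEF, 50.3% to 51.3% and 49.5% to 50.2% in LowK, 49.6% to 51.02% and 48.7% to 49.6% in MidK).

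Among the 115 genes with at least 200 transitions in MEF, the density ran from 1.14 to 3.13 transitions per kb with a median of 1.91. Srpx, a sushi-repeat matrix gene, had 3.13 per kb in MEF, 1.19 in LowK and 0.377 in MidK. The noncoding Gm39488 had 3.09, 1.85 and 0.943, and Cd99l2, which encodes a membrane protein, 3.01, 1.47 and 0.508. Septin6, of the septin cytoskeleton, had 2.78, 1.37 and 0.343, and Tmem164 2.57, 1.51 and 0.496. Against medians of 0.746 in LowK and 0.418 in MidK, all 5 were above in LowK, while Srpx and Septin6 were below in MidK.

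The share of C:G to T:A in these 115 genes had a median of 51.4% in MEF, with the interval of 14 genes (12.2%) above 50% and that of 1 (0.87%) below. Of the 31 genes with as many transitions in LowK 0 were above and 0 below, and of the 11 in MidK 0 were above and 1 (9.09%) below. The highest in MEF were the noncoding Gm32113 (62.7%, 55.6% to 69.4%), Bcor (60.9%, 54.9% to 66.7%), Pir, which encodes pirin (58.7%), Mid1, a ubiquitin ligase gene (58.1%, 54.1% to 62.05%), and Cask, a synaptic scaffold kinase gene (57.9%). LowK and MidK were not used to rank the genes, but 21.1% and 17.5% of their C:G to T:A sites are ones that MEF also lists. They gave 57.3% and 51.9% for Gm32113, 47.9% and 57.1% for Bcor, 55.6% and 53.2% for Pir, 56.8% and 58.1% for Mid1 and 52.4% and 56.1% for Cask. Of these 10 values 9 were above 50%, and all 10 intervals included 50%. Over all 115 genes the share was above 50% in 58 (50.4%) in LowK and 52 (45.2%) in MidK. With 1 single-base site per 300 bp Mid1 was at 53.0% and Bcor at 56.8% in MEF, with intervals that included 50%. The 1 Mb window that holds Mid1, from X:169000001, was at 57.0% in MEF (54.7% to 59.2%). Those from X:166000001, X:167000001 and X:168000001 were at 55.1%, 54.0% and 54.6%, all with intervals above 50%. The high MEF share was thus not particular to Mid1 in this region.

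At the other end were Asb12 (42.9%, 36.0% to 49.97%), Rps6ka3, a kinase gene (43.7%), Snx12, a sorting nexin gene (44.6%), Mtm1, the myotubularin gene (44.9%), and Zc3h12b (45.9%). LowK gave 50.6%, 53.7%, 52.9%, 56% and 47.1% for them and MidK 48.7%, 44.2%, 44.05%, 51.4% and 52.4%. These 10 values fell on both sides of 50%, with wide intervals that all included it. Rps6ka3 and Snx12 were about as low in MidK as in MEF. Asb12 was the gene whose MEF interval lay below 50%, and that interval included 50% with 1 single-base site per 300 bp (43.4%), at a reliability of at least 20 (40%) and without the deepest 1% of sites (43.1%).

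**Figure D5:**
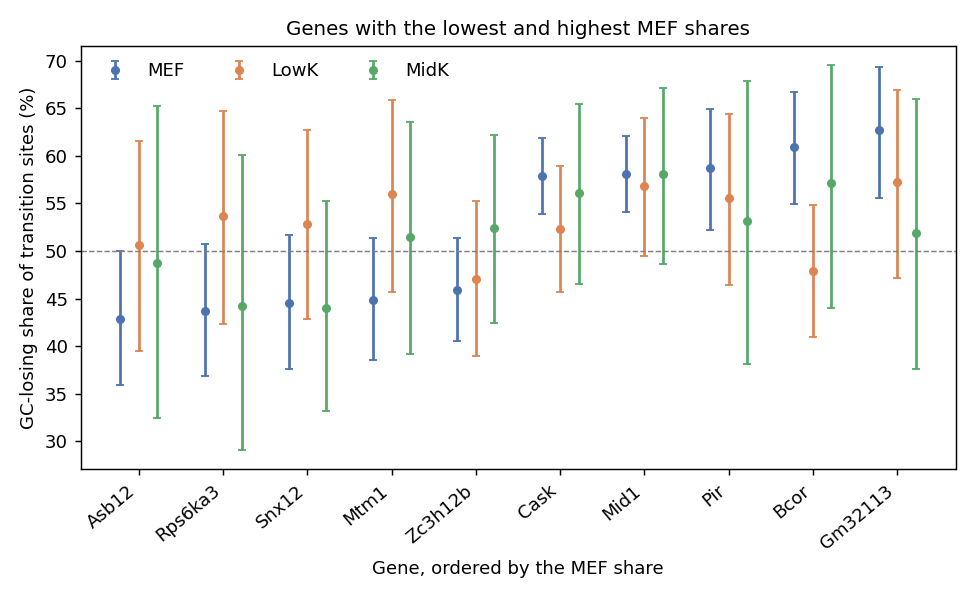
Percent of transition sites that were C:G to T:A (GC-losing) in the 5 genes with the lowest and the 5 with the highest share in MEF, of 115 with at least 200 MEF transitions; points are shares, bars exact 95% intervals, and the dashed line is 50%. MEF chose the genes. The LowK and MidK bars all include 50%.

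Gene lists were described by their summed sites. The escape genes, which stay active on the inactive X, held 1704 transitions in MEF, 790 in LowK and 393 in MidK, with C:G to T:A at 54.4% (52.0% to 56.8%), 51.6% and 52.9%. Mid1 held 621 of the MEF sites, and without it the MEF value was 52.3% with an interval that included 50%. The X-inactivation centre genes found (9 of 10, Tsix was not used) held 608, 292 and 162, at 51.0%, 50% and 51.2%. Xist, the noncoding RNA that coats the inactive X, had 40 transitions in MEF, 18 in LowK and 8 in MidK, of which 55%, 66.7% and 75% were C:G to T:A. The 12 pluripotency and germline genes held 884, 459 and 263, at 50.6%, 52.1% and 47.5%, and the 12 fibroblast and matrix genes 2590, 919 and 489, at 51.7%, 48.7% and 52.6%. All these intervals except that of the escape genes in MEF included 50%. Over all gene bodies in MEF the share was 51.9% (51.5% to 52.2%), an interval that overlapped that of the escape genes. The median density of the list members was 1.78 per kb for the X-inactivation centre, 1.90 for escape, 1.87 for pluripotency and germline and 2.08 for fibroblast and matrix genes in MEF, against 1.73 over all genes.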

How the data were processed

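Chromatin isolated with an antibody to LSD1 was sequenced from 3 mouse samples, with groups taken from the sample titles. The submitters' processing notes name BWA and the build mm10, and variants were called with bcftools mpileup, per the series' design text. Filters, versions and the handling of duplicates: not given in the sources used here. The deposited counts are, per the file headers, the depth and the reads with the B6 and the variant base at each position, and total reads by allele at single-base sites were 883058 in MEF, 295240 in LowK and 203350 in MidK. A reliability score per call was deposited too. Its MidK column carries another prefix than the rest of that file, and it was used in 1 alternative only.

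Rows with longer entries (30883, 12194 and 7022) and single-base rows at positions listed more than once (8, 3 and 0) were left out. Shares and exact 95% Clopper-Pearson intervals were computed with Python 3.11.15, scipy 1.17.1 and pandas 2.3.3. Simulated lists were used to check that known shares are recovered. They held independent sites, some without a variant read, and the coverage of the intervals was not tested. With 1 library per group no p-value was computed, and shares were called different when intervals did not overlap. Two-allele sites needed at least 2 reads of each allele. Genes, promoters and microRNAs came from RefSeq tables of GRCm38.p6. No genome sequence was used, so sequence context was read in promoter windows only. Named genes were, among those with at least 200 MEF transitions, the 5 densest and the 5 with the highest and lowest C:G to T:A share. Named windows were the 3 fullest and emptiest of 1 Mb, and named sites and promoters were those with most reads or shared transitions. Members, lists and rules were chosen with earlier results of these data known. The depth and allele classes, the CpG shares, the microRNAs and the list-gene promoter sites were added after seeing the data. Alternatives are given at the end.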

Additional observations from a re-analysis of the deposited data

Results flagged for a closer look

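C:G to T:A made up 51.2% of the transitions in MEF and 49.5% in MidK, on opposite sides of 50% with intervals that excluded it. The difference between the libraries was not tested, since each group holds 1 library. In MidK the interval included 50% when only sites with at least 2 reads were used.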

How the results depend on the processing

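Each group holds 1 library, so replicates could not be left out. No paired analysis was possible because no group holds a second library. Depth is low, with a median of 2 reads per site in MEF and 1 in LowK and MidK, every listed site carries a variant read, and neighbouring sites share reads. Keeping positions listed more than once and leaving out the end of the chromosome changed no call. Mid1 lies in the part left out, so the latter does not cover it. Windows said to be above in this section held more C:G to T:A than A:T to G:C sites, whatever their interval. With at least 2 reads per site, C:G to T:A was 51.3% in LowK, now above 50%, and 50.1% in MidK, with 10 of 18 windows of 10 Mb above. Transitions were then 62.2% in MEF and 62.5% in LowK. The gap between classes (C:G to T:A minus A:T to G:C, in points) in the share of sites at 1 read, here at 2, was -0.338 for MEF and -1.05 for LowK, no longer called, and -2.15 for MidK, now called. The gap in sharing was then -0.0959 for MEF in LowK, -0.164 for MEF in MidK, 0.00847 for MEF in all 3, -0.340 for LowK in MidK, 0.0562 for LowK in all 3 and 0.163 for MidK in all 3, none called. At a reliability of at least 20, C:G to T:A was 50.9% in LowK, called, and 49.3% in MidK, not called, with 8 of 17 windows above. Transitions were then 62.7% (MEF), 63.2% (LowK) and 60.1% (MidK). The single-read gap was 0.00693 in MEF and -0.0257 in LowK, the majority gap -8.09 in MidK, 0.839 in LowK and -0.148 in MEF, and the sharing gap -0.166 for MEF in LowK, -0.0112 for MEF in all 3, -0.151 for LowK in MEF, -0.344 for LowK in MidK and 0.0541 for MidK in all 3, none called. With 1 single-base site per 300 bp, C:G to T:A was 49.7% in LowK with 8 of 17 windows above, the single-read gap 0.108 in MidK, the majority gap -5.99 in MidK, and the sharing gap 0.0141 for MEF in LowK, -0.151 for MEF in MidK, -0.0534 for MEF in all 3, -0.179 for LowK in MidK and 0.137 for MidK in MEF, none called. Without the deepest 1% of sites the gap for LowK in all 3 was -0.222, called. With no upper limit on depth the MidK majority gap was -5.27, not called. At most 20 reads per site, chosen after seeing the data, gave gaps in variant reads at sites in all 3 libraries of -2.57 in MEF and -3.26 in MidK, not called. In windows of 1 Mb, more C:G to T:A was seen for MEF in 116 of 156, for LowK in 73 of 154 and for MidK in 60 of 154. Among genes, Cd99l2 fell below 50% at 46.8%, Gm39488 at 44.3%, 46.2% and 47.1% and Srpx at 49.5%, 48.5% and 49.6%, for 1 site per 300 bp and, for the latter pair, reliability and at least 2 reads. The cause was not tested.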
